A study of Mus musculus with 6 samples.

Results

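The 38 genes described here encode the machinery that copies DNA in S phase and the regulators that start it. They were taken from a fixed list of gene names that was chosen with earlier results of these data known. Counts and medians over the list are therefore descriptions and no independent test. On the array 37 of the 38 had a probe set listed with 1 gene symbol only, out of 18193 such genes, and Chaf1a, a subunit of the histone chaperone CAF-1, had none. A gene with several such probe sets was read from the brightest, judged by its mean log2 signal across the arrays. Testing required a signal at or above the detection floor, the 40th percentile of an array's probe sets, in 3 or more of the 6 arrays. This left 36 of the 37, and 13335 genes in all. Tyms, thymidylate synthase, was not tested, since its probe set reached the floor on 1 array, and a further Tyms probe set that is listed with more than 1 symbol was not used.

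The 6 arrays hold 2 FACS-purified populations of mouse lung cells, with 3 labelled biological replicates of each. E18 samples were Muc1+/Pdpn+ cells from lungs at embryonic day 18, called bipotent progenitors in the series, and adult samples were Lyz2+/EpCAM+ cells from adult lungs, called alveolar type II cells. Age and sort differ together between the groups, so they cannot be told apart. Strain, genotype, sex, adult age and any pooling of animals were not given in the sources used here, and whether replicates came from separate animals is not stated beyond the word biological, so the spread may be partly technical. In bulk RNA of this kind, fewer dividing cells and less of a transcript per cell cannot be told apart.

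Before S phase, the origin recognition complex, Cdc6 and Cdt1 load the MCM helicase onto DNA, a step called licensing. Cyclin-dependent and Cdc7 kinases then join Cdc45 and the GINS complex to MCM, primase and the polymerases start synthesis, and the clamp Pcna holds the polymerases on the template. Many of these genes are known targets of E2F transcription factors, which cyclin E and CDK2 help to release from the retinoblastoma protein. Lung epithelial progenitors divide during fetal growth, and most alveolar type II cells of a healthy adult lung are not dividing.

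Signals fit the labels only in part. The sort gene Lyz2 stood at 14.13, 14.04 and 14.27 on the E18 arrays and at 11.44, 11.28 and 11.13 in the adult arrays sorted for it (log2 signal throughout). Muc1 and Pdpn, the genes of the E18 sort, read 11.10 to 11.94 and 11.65 to 12.14 in E18 and 7.92 to 11.55 and 9.38 to 9.88 in adult arrays. Epcam, the adhesion molecule of the adult sort, stood at 10.69, 11.31 and 9.26 in E18 and at 7.85, 8.50 and 10.68 in adult replicates 1, 2 and 3. All 12 measured type II markers reached the floor on every array, and 1 of them was called higher in E18. The mean signal of 11 leukocyte markers was 6.45 to 7.18 in E18 and 9.12 to 11.91 in adult arrays, and that of 12 mesenchymal markers was 10.83 to 11.74 against 6.53 to 8.81. For 10 endothelial markers it was 8.83 to 10.85 against 6.20 to 7.75, for 6 mesothelial markers 8.54 to 9.81 against 6.08 to 7.19, for 13 type I markers 11.37 to 12.09 against 8.86 to 9.33, for 10 macrophage markers 11.14 to 12.25 against 11.53 to 12.17, and for 2 erythroid markers 6.58 to 7.96 against 4.99 to 5.47. Adult replicate 3 had the highest mean of 8 epithelial and of 8 airway markers, 12.07 and 12.16, against 8.71 to 9.03 and 8.50 to 8.62 in the other adult arrays. The 3' to 5' signal ratio of Actb, a measure of RNA integrity, was 11.7 in adult replicate 1 and 1.35 to 1.55 elsewhere. That of Gapdh was 24.6 in adult replicate 1 and 4.7 to 6.18 elsewhere, so it was well above 1 on every array. Spike-in RNA was far brighter in the third replicates (mean 13.57 and 14.08) than in the others (6.65 to 9.42). Called higher in E18 were 10 of the mesenchymal, 4 of the endothelial, 3 of the mesothelial, 7 of the type I and 1 of the epithelial markers. In adult arrays 5 leukocyte markers were called higher, and none of the macrophage, airway or erythroid markers was called. Of all genes tested, 4.57% were called higher in E18 and 1.41% higher in adult arrays, so 1 call among 8 epithelial or 12 type II markers is near the background. The part of these differences in the results below was not tested, and arrays whose removal moved a result are named beside it for the results described most fully.

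Promoter sequence is shown for 6 of the genes because E2F sites are the feature best known to be shared by this family. RefSeq promoters of build GRCm38.p6, each running from 250 bases before to 50 after a transcription start, were found for 31 of the 38 genes. The E2F consensus was searched as TTTCCCGC, TTTCGCGC, TTTGCCGC and TTTGGCGC on both strands, where matches on opposite strands can overlap. It occurred in 11 of the 31 (35.5%), against 704 of 27025 genes with a promoter in the table (2.6%) and 22 of 61 other replication genes (36.1%), counting a gene if any of its promoters had a match. In the lines that follow, the 160 bases before the start are written 5′ to 3′ on the gene's strand, with E2F matches in capitals. Mcm6, Mcm5, Cdc6 and Pola1 are shown for their matches, and Prim1 and Rrm1 because both passed the test below and had no exact match in the window. The stretches of Prim1 and Rrm1 both hold gttcccgc, which differs from TTTCCCGC in its first base and was not counted. Other forms of the site were not searched.
Mcm6, chr1:128359706-128359865, minus strand: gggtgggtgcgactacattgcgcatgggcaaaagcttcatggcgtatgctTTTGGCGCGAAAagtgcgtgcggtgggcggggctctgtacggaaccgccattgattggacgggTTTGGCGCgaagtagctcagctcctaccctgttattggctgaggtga
Mcm5, chr8:75109349-75109508, plus strand: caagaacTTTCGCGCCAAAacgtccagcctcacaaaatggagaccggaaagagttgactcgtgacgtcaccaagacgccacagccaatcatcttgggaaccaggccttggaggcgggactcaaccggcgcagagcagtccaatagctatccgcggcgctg
Cdc6, chr11:98907991-98908150, plus strand: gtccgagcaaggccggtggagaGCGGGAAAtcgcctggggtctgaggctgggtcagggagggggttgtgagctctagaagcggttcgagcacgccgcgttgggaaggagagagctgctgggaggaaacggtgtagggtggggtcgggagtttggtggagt
Pola1, chrX:93632156-93632315, minus strand: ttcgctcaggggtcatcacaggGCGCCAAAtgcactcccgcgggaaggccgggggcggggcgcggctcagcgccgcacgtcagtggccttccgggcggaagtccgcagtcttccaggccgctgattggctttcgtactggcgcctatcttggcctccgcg
Prim1, chr10:128015055-128015214, plus strand: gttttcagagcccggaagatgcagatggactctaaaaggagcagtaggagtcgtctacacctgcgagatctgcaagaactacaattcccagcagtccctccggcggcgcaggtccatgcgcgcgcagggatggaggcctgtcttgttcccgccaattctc
Rrm1, chr7:102441535-102441694, plus strand: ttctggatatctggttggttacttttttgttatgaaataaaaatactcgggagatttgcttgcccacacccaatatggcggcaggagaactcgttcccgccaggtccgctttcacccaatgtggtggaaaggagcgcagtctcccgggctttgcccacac

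Mcm6 held 3 matches, of which a pair on opposite strands overlap, and Mcm5 held 2 that overlap. Of the 6 genes that passed the test below, 3 had a promoter in the table and 1 of these, Lig1, had a match, which lay after the start of 1 of its 3 promoters. Of the 30 tested genes that did not pass, 26 had a promoter and 10 a match (38.5%). The motif CCAAT occurred in 17 of the 31 (54.8%) against 41.1% of all genes, and TTTGAA, the motif of many mitosis genes, in 4 (12.9%) against 20.2%. Among 21 mitosis genes with a promoter, TTTGAA occurred in 15 (71.4%) and an E2F match in 1 (4.76%). A match is a run of letters and no evidence of binding, and no binding was measured here.

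Replication genes were higher in the E18 arrays. The log2 difference, E18 minus adult, was above 0 for 33 of the 36 tested genes, compared with 59% of all genes tested, and its median was 1.02 against 0.17 over all genes. All 3 E18 arrays lay above all 3 adult arrays for 22 of the 36, where 18.8% of all genes did so. None of the 36 had the adult arrays entirely above, against 10.1% of all genes. In limma 6 of the 36 were higher at an adjusted p under 0.05, against 4.57% of all genes called higher in E18. These were the cyclins Ccne2 and Ccna2, the helicase subunit gene Gins1, the ligase Lig1, the reductase subunit Rrm1 and the primase Prim1. In either direction 5.98% of all genes were called. None of the 36 was called lower, against 1.41% of all genes, and none was lower at an unadjusted p under 0.05, while 21 were higher at that level, against 15.1% of all genes. Leaving out E18 replicate 1 or E18 replicate 2 gave limma counts of 0, with 16 and 17 at an unadjusted p under 0.05, where 0.337% and 0.315% of all genes were called higher in E18. The count was 3 without E18 replicate 3 (2.95% of all genes), 4 without adult replicate 1 (3.38%) and 1 without adult replicate 2 (1.36%). It was 14 without adult replicate 3, where 15.5% of all genes were called higher in E18. The median difference stayed between 0.95 and 1.11 when any 1 array was left out.

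**Figure D1:**
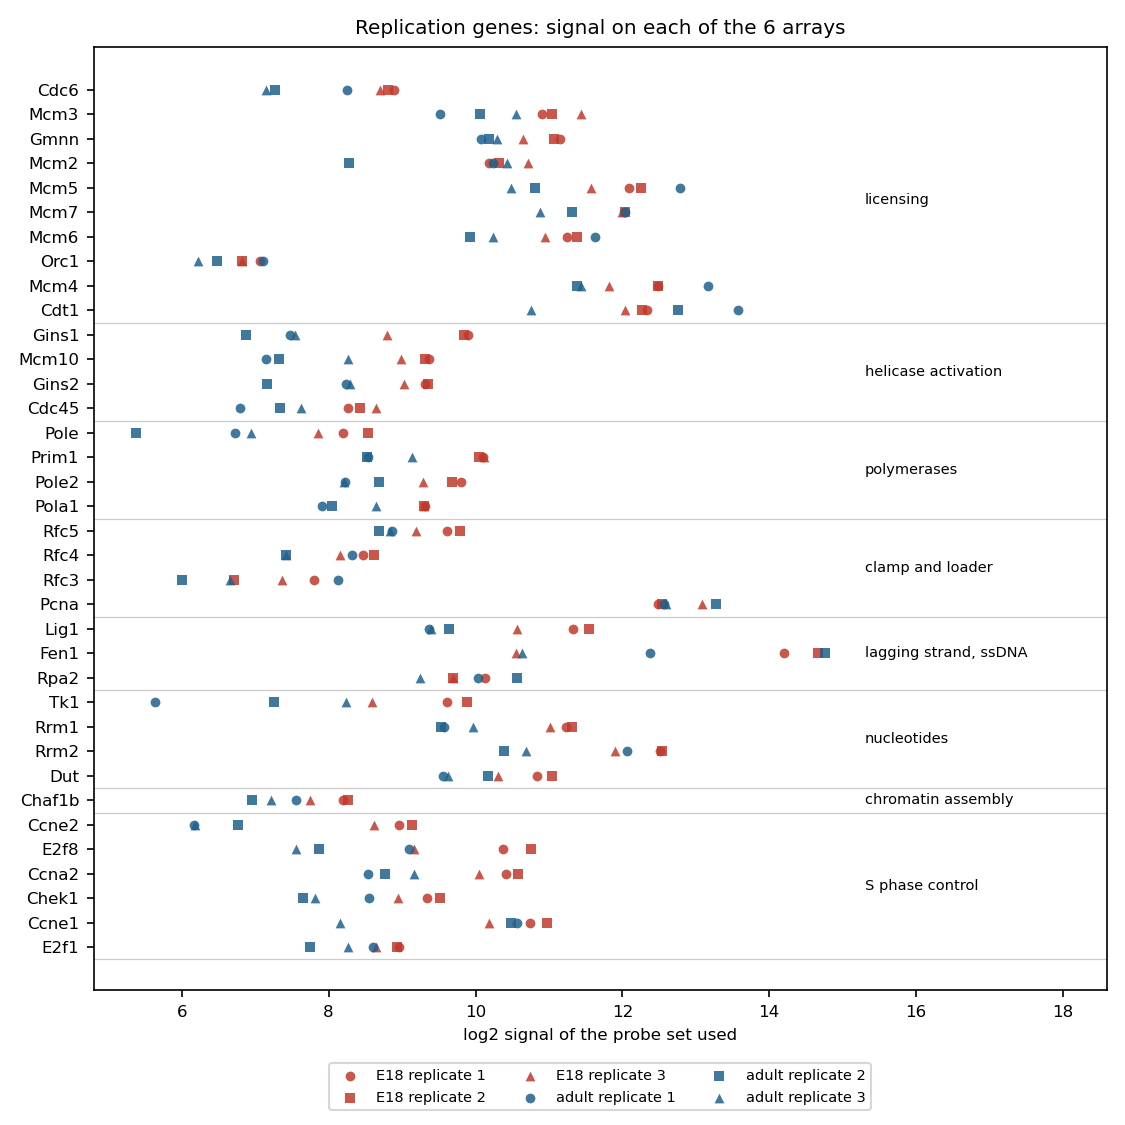
Log2 signal (x axis) of the 36 tested replication genes (rows, by role) on each array, with E18 in red, adult in blue and replicates 1, 2 and 3 as circles, squares and triangles. Signals compare within a row only; in 22 rows every red symbol lies to the right of every blue one.

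Licensing genes had a median difference of 0.61 with the probe sets used. Of 10 genes 0 were called by limma and 3 had an unadjusted p under 0.05, against 4.57% and 15.1% of all genes, so with 10 genes these counts are near the background. Cdc6, which loads MCM at origins, had the largest difference of the group, with 8.89, 8.81 and 8.70 in E18 (always in the order of replicates 1, 2 and 3) and 8.25, 7.27 and 7.14 in adult arrays (1.24, SE 0.40, adjusted p = 0.123). Its groups did not overlap, and adult replicate 1 was the adult array closest to E18. Gmnn, the inhibitor that binds Cdt1 and stops relicensing, also did not overlap, at 10.65 to 11.15 in E18 and 10.08 to 10.29 in adult (0.78, adjusted p = 0.161). Cdt1, the loader that Gmnn inhibits, stood at 12.33, 12.27 and 12.03 in E18 and at 13.57, 12.76 and 10.76 in adult arrays (-0.15, 95% interval -1.68 to 1.37). The adult arrays of Cdt1 spanned the E18 arrays on both sides, and the difference was 0.45 without adult replicate 1 and -0.96 without adult replicate 3. A second Cdt1 probe set gave 0.31, also with overlap. Orc1, the largest subunit of the origin recognition complex, overlapped, with a difference of 0.30 (interval -0.68 to 1.27) that was 0.11 without adult replicate 3 and 0.55 without adult replicate 1.

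The 6 genes of the MCM ring, Mcm2 to Mcm7, gave different pictures with different probe sets. With the brightest probe set their differences were 0.27 to 1.09, none passed, and only Mcm3 did not overlap between groups. These differences moved with single adult arrays: Mcm2 was 0.07 without adult replicate 2 and 1.15 without adult replicate 3, Mcm4 ranged from -0.04 without adult replicate 2 to 0.86 without adult replicate 1, and Mcm5 from 0.17 without adult replicate 3 to 1.32 without adult replicate 1. Mcm6 ranged from 0.26 without adult replicate 2 to 1.11 without adult replicate 1, and Mcm7 from 0.34 without adult replicate 3 to 0.92 without adult replicate 1. None of these fits passed. For each of them that probe set had a name ending in _x_at or _s_at, which marks probes that can match other transcripts. Mcm5 stood at 12.09, 12.25 and 11.57 in E18 and at 12.78, 10.81 and 10.48 in adult replicates 1, 2 and 3, so that adult replicate 1 was the highest of the 6. Its brightest other probe set read 9.79, 9.90 and 9.37 in E18 and 6.32, 8.10 and 7.73 in adult, with adult replicate 1 the lowest. Mcm6 behaved alike, with 11.63 in adult replicate 1 above 10.94 to 11.38 in E18 by the brightest probe set, and 8.54 below 10.93 to 11.11 by the other.

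An added comparison therefore left out all _x_at and _s_at probe sets before taking the brightest, a choice made after the values were seen. All 6 MCM ring genes then had non-overlapping groups with the probe set taken. Mcm2 (2.09, SE 0.48, adjusted p = 0.0476), Mcm5 (2.30, SE 0.50, adjusted p = 0.0407) and Mcm6 (1.78, SE 0.38, adjusted p = 0.0369) passed. Mcm4 (1.28, adjusted p = 0.0596), Mcm7 (2.09, adjusted p = 0.07) and Mcm3 (1.33, adjusted p = 0.227) did not. The ending of the name did not sort every probe set. Dimmer probe sets without these endings overlapped for Mcm3 (-0.13 and 1.81) and Mcm5 (0.45). An _s_at set of Mcm7 that this comparison left out did not overlap (1.28). In this comparison 10 of 36 replication genes were called higher in E18, against 4.77% of 12968 genes, and 30 of 36 did not overlap, against 19.7%. The 10 were the 6 named above with Mcm2, Mcm5, Mcm6 and Rrm2. Here too the limma count was 0 without E18 replicate 1 or E18 replicate 2 (21 and 22 at an unadjusted p under 0.05), 3 without E18 replicate 3, 6 without adult replicate 1, 1 without adult replicate 2 and 21 without adult replicate 3, where 0.386%, 0.332%, 3.17%, 3.52%, 1.5% and 16.1% of all genes were called higher in E18. Without adult replicate 1, Mcm2 (1.57), Mcm5 (1.77) and Mcm6 (1.44) passed at adjusted p = 0.0434, 0.043 and 0.0497. For the 12 replication genes whose probe set changed, adult replicate 1 lay below the E18 mean by a median of -0.13 with the first probe set and -2.44 with the second, and the second was lower in 12 of 12. In adult replicates 2 and 3 the medians were -1.11 and -1.52, and -1.07 and -1.19. Over all 1221 genes whose probe set changed, adult replicate 1 moved from 0.31 to -0.87 and adult replicate 3 from -0.06 to -0.06. Adult replicate 1 is the array with the Actb ratio of 11.7, and whether transcript position decides these readings was not tested.

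**Figure D2:**
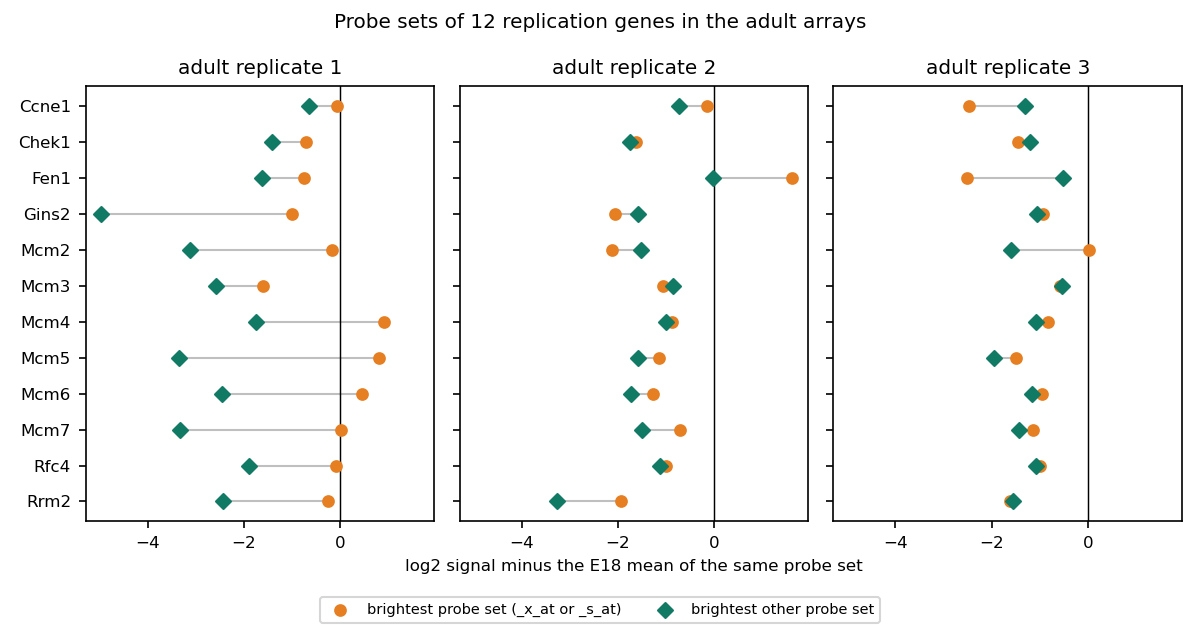
Log2 signal of each adult array minus the E18 mean of the same probe set (x axis) for the 12 replication genes whose brightest probe set is an _x_at or _s_at set (orange circles) and the brightest other probe set (green diamonds). In adult replicate 1 all 12 diamonds lie left of their circles, with medians of -2.44 and -0.13.

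Of 4 genes that turn the loaded helicase on, 1 passed, against 4.57% of all genes called higher in E18, and the median difference was 1.49. Gins1, a subunit of the GINS complex that joins MCM and Cdc45, stood at 9.90, 9.84 and 8.80 in E18 and at 7.48, 6.88 and 7.54 in adult arrays. E18 replicate 3 was the lowest of its group and still above every adult array, and Gins1 was 4.63-fold higher in E18 (log2 2.21, SE 0.42, adjusted p = 0.027). The limma call was lost when E18 replicate 1 (adjusted p = 0.16), E18 replicate 2 (0.155), adult replicate 1 (0.0592) or adult replicate 2 (0.0994) was left out. Mcm10, which helps to activate the helicase, had 8.98 to 9.37 in E18 and 7.14 to 8.27 in adult (1.64, adjusted p = 0.0566). Gins2, another GINS subunit, and Cdc45 had differences of 1.33 and 1.20 (adjusted p = 0.105 and 0.112). None of the 4 overlapped between groups, while 18.8% of all genes had the E18 arrays entirely above. With all probe sets of a gene averaged, Cdc45 was 0.36 (adjusted p = 0.736) and Mcm10 0.96 (adjusted p = 0.32), and a second Cdc45 probe set gave -0.49 with overlap. The other Mcm10 probe sets reached the floor on at most 1 array. The other GINS subunit genes, outside the list, overlapped at -0.12 (Gins3) and 0.31 (Gins4).

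Of 4 polymerase genes 1 passed, against 4.57% of all genes called higher in E18. All 4 had the E18 arrays entirely above, against 18.8% of all genes. Prim1, the catalytic subunit of primase, stood at 10.10, 10.05 and 10.11 in E18 and at 8.54, 8.52 and 9.13 in adult arrays. The E18 arrays were close to each other and above every adult array, and the 2.56-fold difference passed narrowly (1.35, SE 0.31, adjusted p = 0.0471). It passed in 5 of 17 alternative settings and in 1 of the 6 fits with an array left out, and adjusted p ranged from 0.00912 to 0.237 over the 17. Its second probe set gave 0.69, also without overlap. Pola1, the catalytic subunit of polymerase alpha, read 9.30 to 9.31 in E18 and 7.91 to 8.64 in adult (1.10, adjusted p = 0.102), and its difference was 0.45 (adjusted p = 0.681) with a second, dim probe set averaged in. Pole and Pole2, subunits of the leading strand polymerase epsilon, differed by 1.85 and 1.22 (adjusted p = 0.0842 and 0.0749), and Pole was below the floor in adult replicate 2. Polymerase and primase subunits outside the list were mixed and none passed: Pold2 and Pold3 did not overlap (0.86 and 0.42), Pola2, Prim2, Pole3, Pold4 and Pole4 overlapped (0.47, 0.50, 0.47, 0.17 and -0.83), and Pold1 had its adult arrays entirely above (-0.95, adjusted p = 0.263).

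Clamp and clamp loader genes had a median difference of 0.53. Pcna, the sliding clamp, stood at 12.49, 12.54 and 13.09 in E18 and at 12.56, 13.28 and 12.60 in adult arrays. These values interleave, and the difference was -0.11 (95% interval -0.85 to 0.64), which turned to 0.13 after quantile normalization. Rfc3, Rfc4 and Rfc5, subunits of the loader that opens the clamp, had differences of 0.36, 0.69 and 0.74, none passed, and only Rfc5 did not overlap. Second probe sets of Rfc3 and Rfc4 gave 1.76 and 1.37 without overlap, the first with adult replicate 1 below the floor, at 3.21, and Rfc3 was -0.10 without adult replicate 2 and 0.96 without adult replicate 1. By limma 0 of the 4 were called and 1 had an unadjusted p under 0.05, against 4.57% and 15.1% of all genes, which is near the background for 4 genes.

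Lig1, the ligase that seals fragments of the lagging strand, stood at 11.33, 11.55 and 10.57 in E18 and at 9.37, 9.64 and 9.39 in adult arrays. E18 replicate 3 was the lowest of its group and still above every adult array, and Lig1 was 3.22-fold higher in E18 (1.69, SE 0.34, adjusted p = 0.0322). It did not pass after median centring (adjusted p = 0.109), nor when E18 replicate 1 (0.18), E18 replicate 2 (0.183), adult replicate 1 (0.0726) or adult replicate 2 (0.0927) was left out. Fen1, the nuclease that trims the same fragments, read 14.20, 14.67 and 10.55 in E18 and 12.38, 14.76 and 10.63 in adult arrays with its brightest probe set, an _x_at set. This spread did not follow the groups (0.55, interval -2.49 to 3.59). The third replicate was the lowest array of either group, and differences between arrays of replicate number 1, 2 and 3 were 1.82, -0.09 and -0.08. The source of the spread was not tested. A second probe set read 8.29 to 8.44 in E18 and 6.74 to 8.35 in adult. Rpa2, a subunit of the protein that coats exposed single strands, had a difference of -0.11 (interval -1.03 to 0.81). A second Rpa2 probe set gave 0.1, and both probe sets overlapped.

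Nucleotide supply genes had a median difference of 1.38 over 4 tested. Rrm1, the large subunit of ribonucleotide reductase, stood at 11.23, 11.31 and 11.02 in E18 and at 9.57, 9.53 and 9.96 in adult arrays. With this probe set the groups were clearly apart, and Rrm1 was 2.83-fold higher in E18 (1.50, SE 0.28, adjusted p = 0.0252). The limma call was lost after median centring (adjusted p = 0.0784), with the gene's probe sets averaged (0.196), and when E18 replicate 1 (0.163), E18 replicate 2 (0.166), E18 replicate 3 (0.0533) or adult replicate 2 (0.0865) was left out. That average includes a probe set below the floor on every array. It also includes a probe set that reached the floor on 5 arrays and gave 1.29 with overlap. Rrm2, the small subunit whose level follows S phase, read 12.51, 12.54 and 11.90 against 12.06, 10.39 and 10.69 with its brightest probe set, an _x_at set, and overlapped through adult replicate 1 (1.27, adjusted p = 0.171). Without adult replicate 1 the difference was 1.78 (adjusted p = 0.0342), without adult replicate 2 it was 0.94 (adjusted p = 0.368), and no other fit with an array left out passed. In the added comparison another Rrm2 probe set gave 2.42 (adjusted p = 0.0312).

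Tk1, the thymidine kinase of dividing cells, showed the widest adult spread in this group, at 5.64, 7.26 and 8.23 against 9.61, 9.89 and 8.59 in E18. Adult replicate 1 lay below its floor of 5.80, and the third replicates were 0.36 apart. The 4.98-fold difference did not pass (2.32, SE 0.69, adjusted p = 0.103). Without adult replicate 3 it was 2.91 (adjusted p = 0.0153), without adult replicate 1 it was 1.61 (adjusted p = 0.173), and the other 4 fits with an array left out did not pass (adjusted p up to 0.357). Dut, which removes dUTP, had a difference of 0.94 (adjusted p = 0.155) and Chaf1b, a subunit of CAF-1 that deposits histones behind the fork, one of 0.83 (adjusted p = 0.24), both without overlap. With probe sets averaged they were 0.46 and -0.09, but the second probe set of each gene lay below the floor on every array.

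Among regulators, Ccne2, a cyclin E that drives entry into S phase, had the largest difference of the 36 genes. It stood at 8.96, 9.13 and 8.62 in E18 and at 6.16, 6.77 and 6.18 in adult arrays, 5.79-fold higher in E18 (2.53, SE 0.37, adjusted p = 0.0118). No array came near the other group, the difference was 2.80, 2.36 and 2.44 between arrays of replicate number 1, 2 and 3, and it passed in 14 of 17 settings, with adjusted p = 0.0955 without E18 replicate 1 and 0.0971 without E18 replicate 2. Ccne1, the other cyclin E, read 10.74, 10.97 and 10.18 against 10.57, 10.48 and 8.16 and overlapped (0.90, interval -0.62 to 2.41). That difference was 0.11 without adult replicate 3 and 1.31 without adult replicate 1, while a second Ccne1 probe set gave 0.90 without overlap (adjusted p = 0.213 in the added comparison). Whether the cyclins E differ in their change was not tested. Ccna2, the S phase partner of CDK2, stood at 10.42, 10.58 and 10.05 in E18 and at 8.54, 8.77 and 9.16 in adult arrays (1.52, SE 0.32, adjusted p = 0.0355). Its second probe set gave 1.93, also without overlap, but the call was lost after median centring (adjusted p = 0.0921) and without any array other than adult replicate 3 (adjusted p 0.0581 to 0.209).

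E2f8, a repressor that closes the E2F programme, had a difference of 1.93 (adjusted p = 0.0973), with E18 replicate 3 at 9.16 and adult replicate 1 at 9.09 nearly touching. The checkpoint kinase gene Chek1 differed by 1.27 (adjusted p = 0.0985), or 0.76 with probe sets averaged, some of which lay below the floor on every array. E2f1, an activator of these genes, was 8.65 to 8.96 in E18 and 7.75 to 8.60 in adult (0.64, adjusted p = 0.336), and its second probe set gave 1.43. Of 28 further probe sets of the replication genes that reached the floor on 3 arrays, 26 were higher in E18 and 24 had the sign of the probe set used. These are further readings of the same genes on the same arrays, and the E18 arrays alone can meet that floor. The share over all further probe sets is not given here. With 1 probe set per gene, 59% of all genes tested were above 0.

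**Figure D3:**
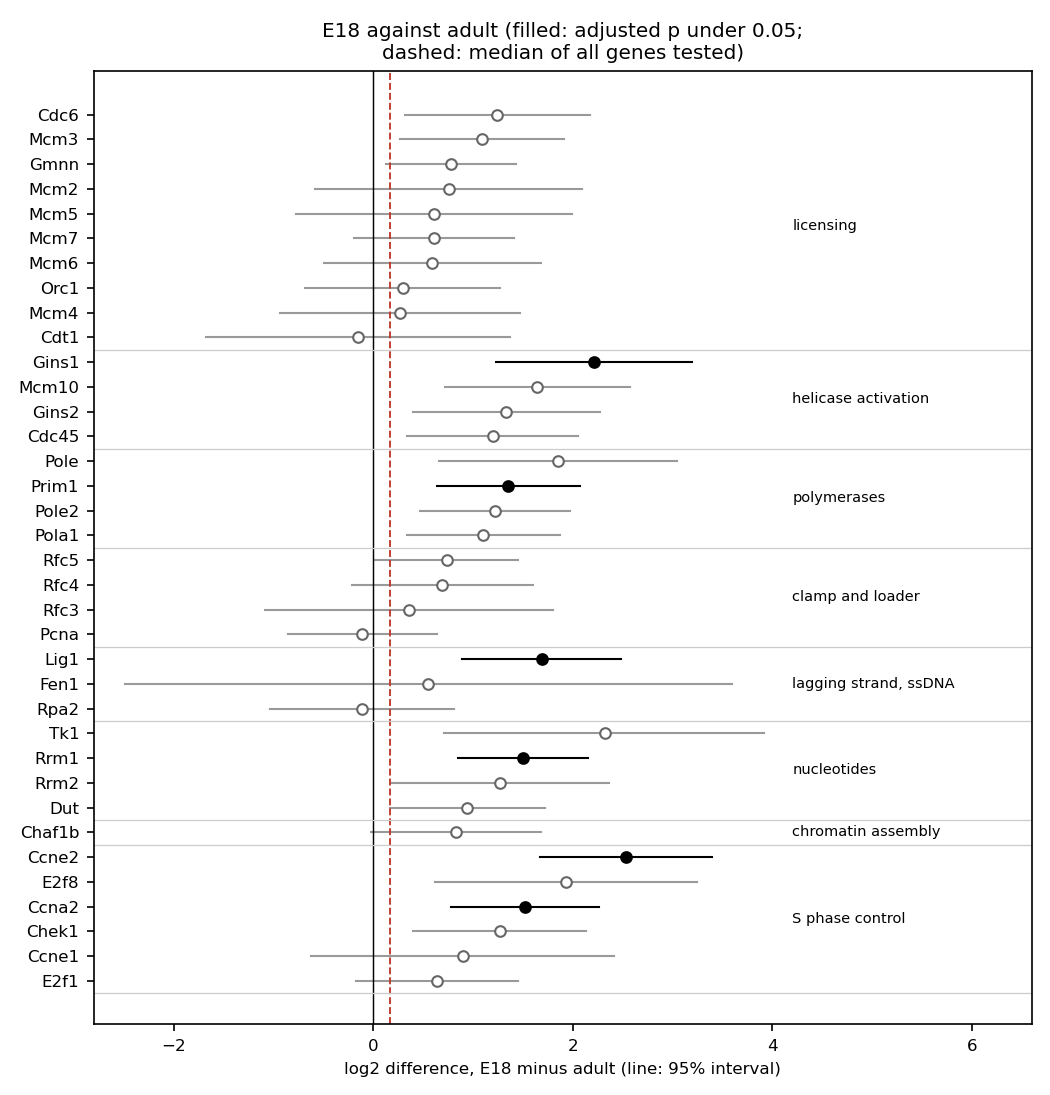
Log2 difference, E18 minus adult, with its 95% interval (x axis) for the 36 tested replication genes by role; filled circles passed at an adjusted p under 0.05 and the dashed line is the median of all genes tested, 0.17. The 6 filled circles lie between 1.35 and 2.53, and 3 circles lie below 0.

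Replication genes outside the list were examined with 76 further names, of which 73 were tested. Of these 11 were called higher in E18 (15.1% of the 73, against 4.57% of all genes), 0 were called lower by limma and 0 were lower at an unadjusted p under 0.05. The median was 0.50, and 62 of the 73 were above 0, against 59% of all genes. Of the 73, 2, Pold1 and the retinoblastoma gene Rb1, had the adult arrays entirely above, against 10.1% of all genes. E2f7, a repressor like E2f8, was highest, at 9.85, 9.92 and 9.65 in E18 and 7.08, 5.78 and 7.27 in adult (3.10, SE 0.46, adjusted p = 0.012). Dtl, which marks Cdt1 for destruction, rose by 2.98 (adjusted p = 0.0226), Cdca7, a partner of the chromatin remodeller Hells, by 2.85 (adjusted p = 0.0166) and Uhrf1, which carries DNA methylation through replication, by 2.34 (adjusted p = 0.0459). The rest were Atad5, Hells, Brca1, Cdk2, Clspn, Cdc7 and Cdc25a, at 1.30 to 2.21. That limma count was 0 when E18 replicate 1 or 2 was left out (19 and 21 at an unadjusted p under 0.05), 7 when E18 replicate 3 or adult replicate 1 was, 1 when adult replicate 2 was and 22 when adult replicate 3 was. Shares of all genes called higher in E18 in these fits, in the same order, were 0.337%, 0.315%, 2.95%, 3.38%, 1.36% and 15.5%.

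Mitosis genes, the nearest group, had larger differences on the same arrays. Of 24 tested, 14 were called higher in E18 (58.3%, against 4.57% of all genes), 0 lower by limma with 0 at an unadjusted p under 0.05, and the median was 2.19, against 0.17 over all genes. The limma count was 0 without E18 replicate 1 or E18 replicate 2 (17 and 18 unadjusted), 8 without E18 replicate 3, 6 without adult replicate 1, 1 without adult replicate 2 and 17 without adult replicate 3. In these fits, in the same order, 0.337%, 0.315%, 2.95%, 3.38%, 1.36% and 15.5% of all genes were called higher in E18. Bub1, a spindle checkpoint kinase, differed by 3.18 (adjusted p = 0.0142), the mitotic kinase Plk1 by 2.84 (adjusted p = 0.0213), the spindle midzone protein gene Prc1 by 2.75 (adjusted p = 0.00868) and Cdk1, the mitotic kinase that pairs with cyclin B, by 2.60 (adjusted p = 0.0126). The difference between this list and the replication list was not tested.

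On single arrays the replication genes followed the groups. With each gene centred on its own mean, the median of the 36 was 0.58, 0.63 and 0.27 on the E18 arrays, in order of replicate number, against -0.25, -0.76 and -0.58 on the adult arrays. All E18 medians were above 0 and all adult medians below. Over all genes tested the medians were 0.13, 0.12 and 0.05 on the E18 arrays and -0.22, -0.14 and 0.06 on the adult arrays. On adult replicate 1 the replication genes thus lay near the median of all genes. The order of the adult arrays depended on the probe sets: without _x_at and _s_at sets the E18 medians were 0.77, 0.72 and 0.45 and the adult medians -0.87, -0.59 and -0.43, so that adult replicate 1 went from the nearest to the farthest. For mitosis genes adult replicate 1 was the lowest, at -1.31, and adult replicate 3 the highest adult array, at -0.48. Between arrays of the same replicate number, 27, 32 and 35 of the 36 replication genes were higher in E18 for numbers 1, 2 and 3, with medians of 0.94, 1.29 and 0.81, where all genes had 0.37, 0.26 and -0.01. These are single arrays set side by side, since no label pairs samples of equal number. The share of all genes higher in E18 within each pair is not given here. The counts of genes therefore stand without a background, and only the medians can be set against all genes. With the third replicates, which share bright spike-in signals, as a block 7 of the 36 genes were called, against 5.21% of all genes, and in replicates 1 and 2 alone 16 were, against 16.5% of all genes.

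**Figure D4:**
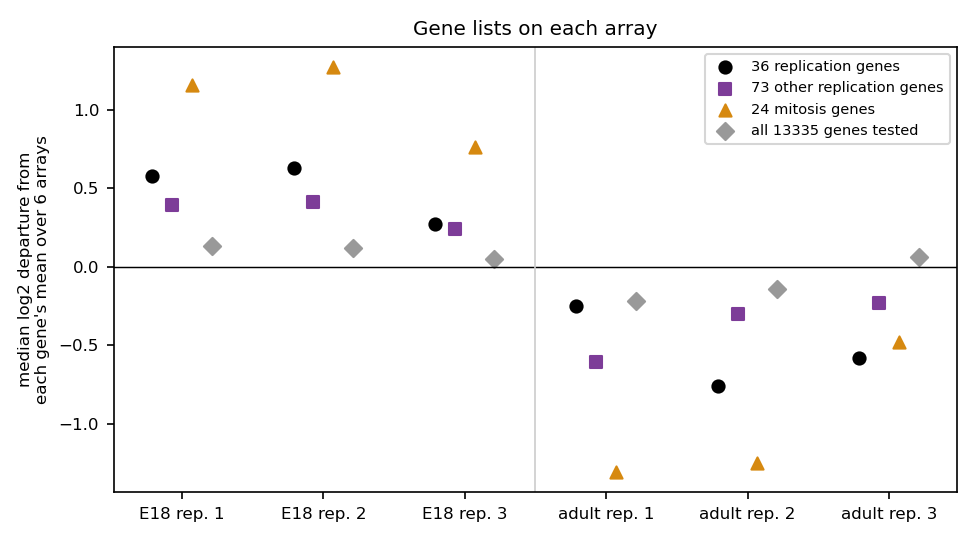
Median log2 departure from each gene's mean over the 6 arrays (y axis) on every array (x axis) for 36 replication genes, 73 other replication genes, 24 mitosis genes and all 13335 genes tested. The replication genes lie above 0 on the 3 E18 arrays (0.27 to 0.63) and below 0 on the 3 adult arrays (-0.76 to -0.25). On adult replicate 1 they lie near all genes (-0.22).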

How the data were processed

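Per the labels' protocols, total RNA of sorted cells was amplified in a kit with 2 cycles, labelled with biotin and hybridized to 1 Affymetrix array per sample. The deposited values are linear signal intensity per probe set, for which the submitters' processing notes name MAS5 in Affymetrix Expression Console. With 2% trimmed from either end, array means were 500.003 or 500.004. The log2 of each value was taken here, without pseudocount or rescaling. Of 45101 probe sets, 34945 were listed with 1 symbol, 932 with several, 9160 with none, and 64 were controls, which were left out. The test was limma 3.58.1 under R 4.3.3 (lmFit, then eBayes with an intensity trend, no covariate), two-sided, with p-values adjusted by Benjamini-Hochberg over 13335 genes at a threshold of 0.05. Median array signal was 70.2 to 112, the floor 42.3 to 68.6, and 3 arrays per group limit the precision. The steps were tested on simulated data. The genes, lists and motifs were chosen with earlier results of these data known. Every replication gene is accounted for. Of the other replication and mitosis lists, the 4 largest called differences were named. The remaining called replication genes, uncalled subunit genes, Rb1, the sort genes, Actb and Gapdh were named after their values were seen. Of the marker lists, means were given in place of named genes. Alternatives covered scaling, the floor, the choice of probe set, the variance trend, blocks and left-out arrays.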

Additional observations from a re-analysis of the deposited data

How the results depend on the processing

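All 6 calls among the replication genes kept their direction in the 17 alternative settings. Genes called over all genes tested numbered 798, against 492 with the replicate number as a block, 2996 in replicates 1 and 2 alone, 63 with E18 replicates 1 and 2 averaged as 1 sample (they correlated at 0.983 across genes), and 66 to 2770 with an array left out. Replication genes called higher in E18 numbered 6, against 2 after median centring, 1 with the replicate block, 16 in replicates 1 and 2 alone, 0 with the average (16 at an unadjusted p under 0.05), 10 without _x_at and _s_at probe sets, and 0 to 14 with an array left out, where the limma counts of 0 came from leaving out E18 replicate 1 or 2 (16 and 17 unadjusted). Their median difference was 1.02, and 1.34 without _x_at and _s_at probe sets. Of all genes, 4.57% were called higher in E18 in the main fit, 3.79% after quantile normalization, 3.95% after median centring and 4.2% with probe sets averaged. That share was 2.95% with the replicate block, 16.5% in replicates 1 and 2 alone and 0.307% with the average. It was 4.77% without _x_at and _s_at probe sets, and 0.315% to 15.5% with an array left out. Other replication genes called numbered 11, against 7 after quantile normalization, 6 after median centring, 4 with probe sets averaged, 2 with the replicate block, 25 in replicates 1 and 2 alone, 0 with the average (20 unadjusted) and 0 to 22 with an array left out. Mitosis genes called numbered 14, against 3 with the replicate block, 0 with the average (18 unadjusted) and 0 to 17 with an array left out, and the 10 replication genes called without _x_at and _s_at probe sets became 0 to 21. The share of calls that were higher in E18 was 610 of 798, 506 of 715 after quantile normalization and 527 of 735 after median centring, while the median of all genes was 0.17, 0.05 and 0.02. No label pairs arrays of equal replicate number, so the block is only an alternative. Between equal numbers, correlations of deviations from the group means were 0.0364, -0.14 and -0.0579. With 3 arrays per group these cannot decide whether arrays were paired or shared a batch.

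Uncalled genes that changed sign were Pcna (0.13) and Cdt1 (0.17) after quantile normalization, Cdt1 (0.22) and Chaf1b (-0.09) with probe sets averaged, and Fen1 (-0.10) with the average of E18 replicates. The averaged probe sets of Cdt1 and of Chaf1b include a set below the floor on every array. Those of Cdt1 also include a set that reached the floor on all 6 arrays and gave 0.31 with overlap. With an array left out the ranges were -0.43 to 1.84 for Fen1, -0.30 to 0.13 for Pcna, -0.96 to 0.45 for Cdt1, -0.04 to 0.86 for Mcm4, -0.10 to 0.96 for Rfc3 and -0.46 to 0.19 for Rpa2. The cause was not tested. The floor is a rank within the array and no measured background.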
